A study of Mus musculus with 10 samples.

Results

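Enzymes that add or remove methyl and acetyl groups on histones were followed in mouse liver as 53 genes, out of 19935 genes measured. They were taken by gene symbol, as all autosomal genes whose symbol begins with Kdm, Kat, Hdac or Setd followed by a digit, or with Suv, Ehmt, Ezh or Prmt. A further 7 that matched these stems, or the symbol Phf8, on the X or Y chromosome were left out (Ezhip, Hdac6, Hdac8, Kdm5c, Kdm5d, Kdm6a and Phf8). By class there were 13 lysine methyltransferases, 15 lysine demethylases, 8 acetyltransferases, 9 deacetylases and 8 arginine methyltransferases. RNA came from 10 livers of mice aged 12 weeks and was read on Affymetrix whole-transcript arrays, 5 arrays from NML-KO animals and 5 from wild-type (WT) animals. NML, or nucleomethylin, is the product of Rrp8. The part of the gene that was removed, the cells in which it was removed, and the strain, sex, litter and hour of dissection of the animals are not stated in the sources used here. A second grouping came from the measured level of Dbp, a transcription factor gene driven directly by the circadian clock. Livers with a log2 Dbp intensity above 8 were called Dbp-high (NML-KO 1, 2 and 3 with WT 1 and 2) and the others Dbp-low (NML-KO 4 and 5 with WT 3, 4 and 5). These sets are not labels of the study.

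Histone tails carry methyl groups on lysine and arginine and acetyl groups on lysine. Writers place these groups with S-adenosylmethionine or acetyl-CoA as donor, and erasers remove them: the flavin enzyme Kdm1a and the JmjC dioxygenases take off methyl groups, and the zinc-dependent Hdac enzymes take off acetyl groups. In liver, acetylation around clock-controlled genes follows a daily rhythm in which the repressor REV-ERB alpha recruits Hdac3 through a co-repressor complex. Nucleomethylin binds methylated histone H3 at ribosomal RNA genes in a complex with the deacetylase SIRT1 and the H3K9 methyltransferase SUV39H1, which was not analysed here.

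Promoter windows were read because the livers differed in clock gene expression, and the clock activator BMAL1 with CLOCK binds the E-box CACGTG. RefSeq windows (GRCm38.p6) running from 250 bases before to 50 bases after a gene start were listed for 43 of the 53 genes, in 60 windows. The E-box occurred in 11.7% of these windows, in 6 genes (Ehmt2, Hdac5, Kat5, Kdm4c, Prmt1 and Prmt3), against 7.15% of all 32851 windows. Of the 6, Hdac5 alone had an adjusted p below 0.05 between the Dbp sets in limma. The others had log2 differences of 0.02 (Ehmt2), -0.12 (Kat5), -0.11 (Kdm4c), 0.18 (Prmt1) and 0.07 (Prmt3). The D-box read by Dbp itself, searched as TTATGTAA and TTACGTAA on both strands, was found in 0 of the genes and in 1.06% of all windows. AGGTCA, the core read by ROR and REV-ERB receptors, also searched on both strands, was found in 7 genes and in 11.7% of their windows, against 16.3% of all windows. Shown here are the windows of Hdac5 (chr11:102230123-102230422, minus strand), the gene that differed most between the Dbp sets, of Kat5 (chr19:5610045-5610344, minus strand), which lay lower in NML-KO livers before adjustment, and of Prmt7 (chr8:106210804-106211103, plus strand), which lay higher in Dbp-high livers. Capitals mark the E-box, and the Prmt7 window holds none. Kat5 had 2 windows listed, and the one shown was picked for holding an E-box.
Hdac5: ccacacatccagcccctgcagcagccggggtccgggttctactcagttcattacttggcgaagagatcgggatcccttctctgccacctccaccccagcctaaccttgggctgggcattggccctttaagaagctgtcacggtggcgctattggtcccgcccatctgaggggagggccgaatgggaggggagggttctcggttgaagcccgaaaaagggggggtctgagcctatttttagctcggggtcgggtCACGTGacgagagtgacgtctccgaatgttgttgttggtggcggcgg
Kat5: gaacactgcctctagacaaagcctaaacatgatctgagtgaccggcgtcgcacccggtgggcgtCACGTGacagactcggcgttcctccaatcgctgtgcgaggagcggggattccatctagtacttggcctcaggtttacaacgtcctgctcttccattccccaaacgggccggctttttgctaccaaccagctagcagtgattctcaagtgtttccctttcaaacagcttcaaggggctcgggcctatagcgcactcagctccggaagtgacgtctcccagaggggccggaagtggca
Prmt7: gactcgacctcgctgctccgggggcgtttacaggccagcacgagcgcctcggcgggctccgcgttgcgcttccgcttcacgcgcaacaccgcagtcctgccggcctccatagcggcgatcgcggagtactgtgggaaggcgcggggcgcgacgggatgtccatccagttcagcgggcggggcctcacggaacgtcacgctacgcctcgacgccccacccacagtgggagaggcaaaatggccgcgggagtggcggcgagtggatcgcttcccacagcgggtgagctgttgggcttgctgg
Relative to the start site, the E-box begins at base 3 in Hdac5 and at base -186 in Kat5. A match in these letters is a description of the window and not a bound site.

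The labels and the tissue were checked first. Rrp8 had log2 intensities of 6.99, 6.78, 6.65, 7.19 and 6.75 in NML-KO livers 1 to 5, against 7.9, 7.66, 7.83, 7.7 and 7.65 in WT livers 1 to 5. The highest NML-KO value was under the lowest WT value, and the difference was -0.88 (SE 0.10, two-sided exact permutation p = 0.00794, the smallest that 5 against 5 allows). Limma's Benjamini-Hochberg adjusted p over all genes was 0.109, and 0.0171 without NML-KO 4. The 6 hepatocyte markers averaged 13.98 to 14.06 in NML-KO livers and 13.89 to 14.1 in WT livers. By mean signal, 3 of 6 neutrophil markers, 2 of 4 measured B cell markers and 2 of 5 T and NK cell markers were dim. These lay below percentile 25 of the values of all genes in all livers. Dbp lay between 9.68 and 10.23 in Dbp-high livers and between 6.2 and 6.6 in Dbp-low livers, and Arntl, the gene of BMAL1, ran the other way, at 5.55 to 5.9 and 8.1 to 8.27. Array medians of 62.5 to 66.7 on the linear scale were close to each other. Precision is limited by the number of arrays. In RNA from whole liver, fewer cells of a type and less RNA per cell cannot be told apart.

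The comparison of NML-KO with WT asks which of these enzymes differ in transcript level between the labelled genotypes. The nucleomethylin protein itself was not measured here. None of the 53 enzymes reached an adjusted p below 0.05 by limma, as was true of all genes (0 of 19935, 0%). At an unadjusted p below 0.05 there were 3 of 53 (5.66%), Kdm4a and Kat5 lower and Hdac2 higher in NML-KO livers, against 2.7% of all genes (1.05% higher and 1.66% lower). The log2 difference was below 0 for 38 of 53 (71.7%, median -0.063), against 53.4% of all genes (median -0.0065). NML-KO 2 was the lowest of the 10 livers for several of these genes, among them Hdac1, Kdm1a, Kdm6b, Setd1a and Setd2. A count without this liver was not made. Most of the 53 enzymes had a mean signal in the upper part of all genes, which include dim ones. Shares among genes of like signal were not compared. Genotypes overlapped for every one of the 53, while 0.406% of all genes had no overlap. With the Dbp set as a term in the model, 42 of 53 lay below 0 (79.2%), against 55% of all genes, and 6 had an unadjusted p below 0.05 (11.3% against 4.36%), again with 0 past the adjusted threshold.

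By class, the medians of the NML-KO minus WT difference were -0.061 for lysine methyltransferases (9 of 13 below 0), -0.094 for lysine demethylases (10 of 15), -0.051 for acetyltransferases (6 of 8), -0.087 for deacetylases (8 of 9) and -0.03 for arginine methyltransferases (5 of 8). The lysine methyltransferases ran from -0.2 for Setd1a to 0.04 for Setd4, and the lysine demethylases from -0.25 for Kdm6b, which removes methyl groups from H3K27, to 0.14 for Kdm5a. Acetyltransferases ran from -0.24 for Kat5 to 0.04 for Kat2b, and arginine methyltransferases from -0.13 for Prmt1 to 0.15 for Prmt9. The widest range was that of the deacetylases, from -0.49 for Hdac5 to 0.17 for Hdac2.

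**Figure D1:**
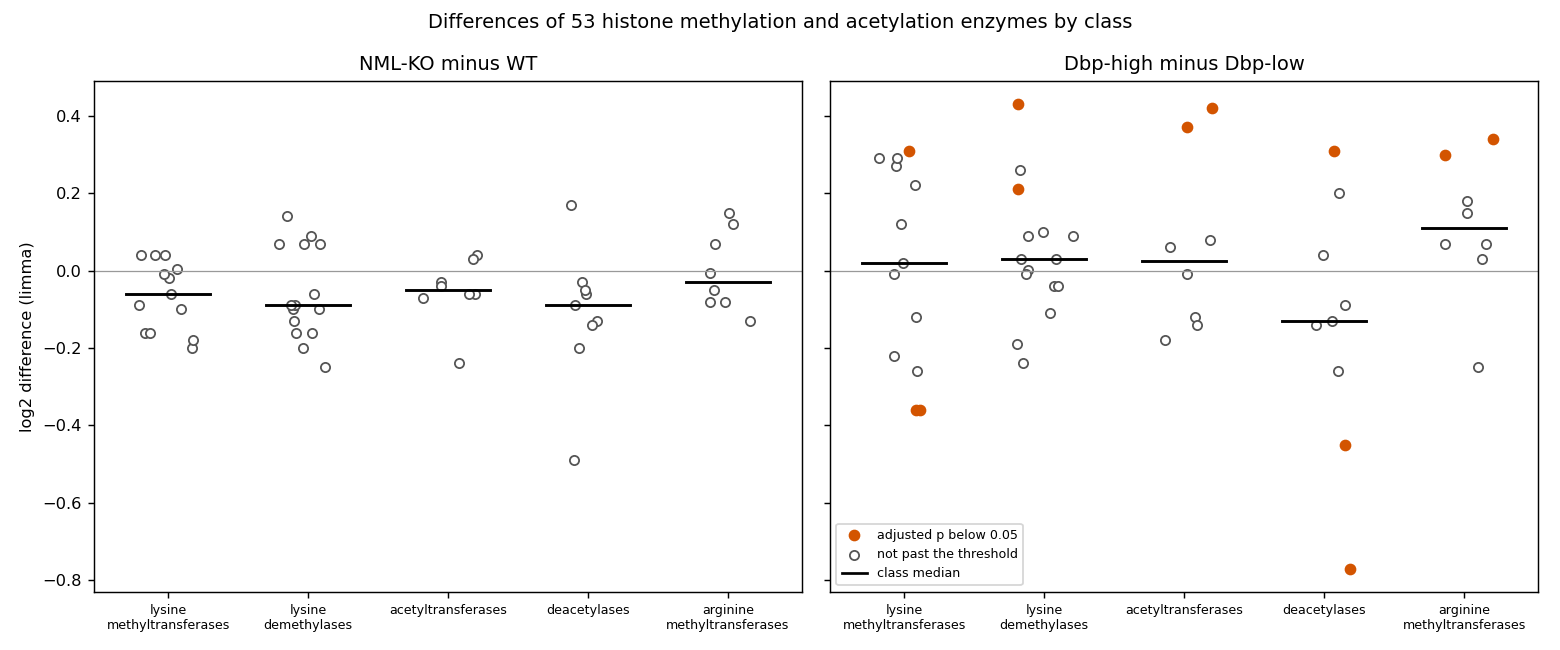
Log2 differences of the 53 enzymes by class from limma, NML-KO minus WT (left) and Dbp-high minus Dbp-low (right), with 1 point per gene and a bar at the class median. Filled points, 12 on the right and 0 on the left, had an adjusted p below 0.05.

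The 6 genes with the smallest unadjusted p in this comparison are given by liver, in the order NML-KO 1 to 5 and WT 1 to 5; the adjusted p of each was 0.999 in limma. Kdm4a, a JmjC demethylase of H3K9 and H3K36, had log2 intensities of 8.12, 8.06, 8.03, 8.34 and 8.19 in NML-KO livers, against 8.37, 8.46, 8.32, 8.31 and 8.27 in WT livers. Its difference was -0.20 (SE 0.07, 95% confidence interval -0.35 to -0.05, unadjusted p = 0.0141 by limma). NML-KO 4 lay within the WT range and the other 4 NML-KO livers below it, the 3 Dbp-high ones lowest. Kat5 (TIP60), the acetyltransferase of the NuA4 complex, had 6.74, 6.74, 7.13, 7.16 and 7.1 in NML-KO livers, against 7.16, 7.31, 7.25, 7.13 and 7.24 in WT livers, a difference of -0.24 (SE 0.10, interval -0.46 to -0.03). NML-KO 1 and 2 lay apart below the rest, and the other NML-KO livers lay at the lower end of the WT range or just under it. Setd2, which places trimethylation on H3K36 along transcribed genes, had 7.85, 7.46, 7.82, 7.98 and 7.86 in NML-KO livers, against 7.96, 7.92, 7.91, 7.88 and 8.12 in WT livers. Its difference of -0.16 had an interval of -0.37 to 0.04, and NML-KO 2 was the lowest liver by a wide step. The other probe set of Setd2 gave -0.06.

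Among deacetylases, Hdac2, a catalytic subunit of the Sin3, NuRD and CoREST co-repressors, was the one gene of its class above 0. It had 7.82, 7.57, 7.69, 7.77 and 7.87 in NML-KO livers, against 7.52, 7.57, 7.55, 7.64 and 7.58 in WT livers, a difference of 0.17 (SE 0.06, interval 0.04 to 0.31, unadjusted p = 0.0183 by limma). NML-KO 2 lay within the WT range and the other 4 NML-KO livers above it. Hdac11, the class IV enzyme that also removes fatty acyl groups from lysine, had 8.02, 8.0, 7.8, 8.06 and 8.12 in NML-KO livers, against 8.49, 8.17, 8.01, 8.13 and 8.19 in WT livers. WT 1 stood highest and NML-KO 3 lowest, and the interval of the difference of -0.20 reached 0.01. Hdac5, a class IIa deacetylase that shuttles between nucleus and cytoplasm, had 7.44, 7.37, 7.4, 7.96 and 8.22 in NML-KO livers, against 7.86, 7.45, 8.51, 8.59 and 8.41 in WT livers. Its difference of -0.49 (interval -1.04 to 0.07) became -0.33 with the Dbp set in the model (unadjusted p = 0.00434, adjusted p = 0.992 by limma), since 3 NML-KO livers but 2 WT livers were Dbp-high.

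**Figure D2:**
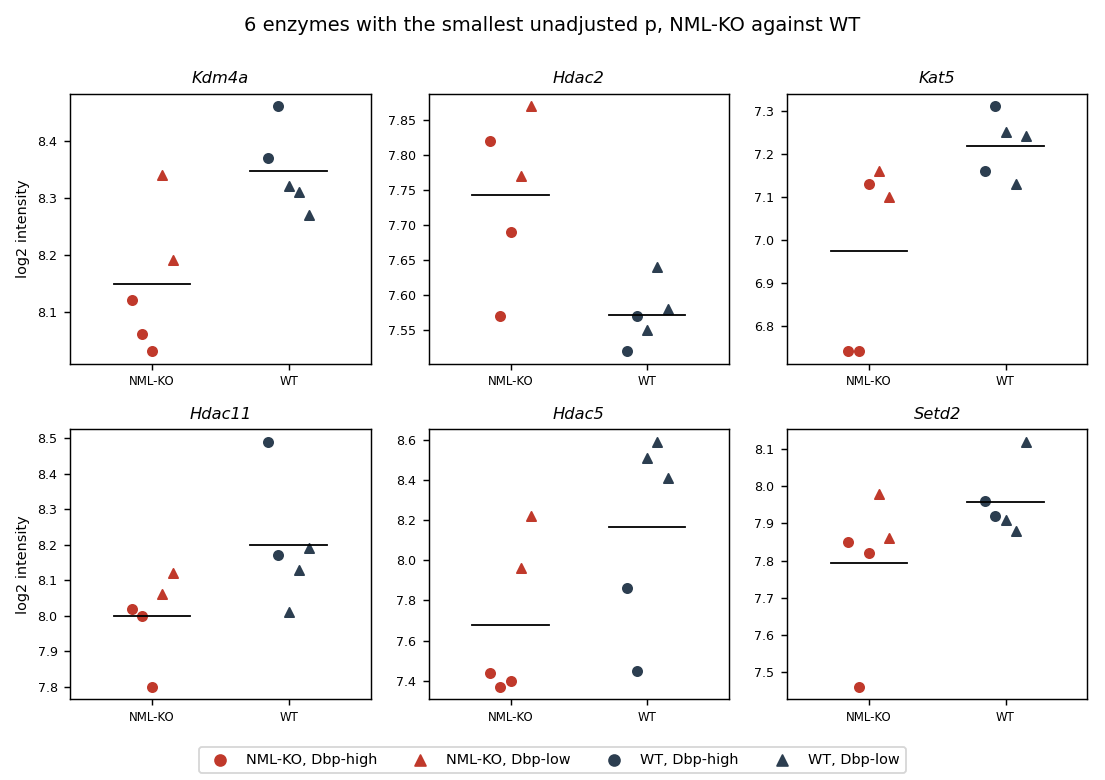
Log2 intensity in every liver for the 6 enzymes with the smallest unadjusted p, NML-KO at the left of WT, with 1 point per liver and a bar at the group mean. The groups overlap for all 6, and Hdac5 splits within each genotype.

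The genotype difference was also read within each Dbp set. In Dbp-high livers 43 of 53 enzymes lay below 0 (81.1%, median -0.11), against 53.8% of all genes, and in Dbp-low livers 34 of 53 (64.2%, median -0.019), against 53%. NML-KO 2, the lowest liver for several enzymes, lies in the Dbp-high set. Kdm4a differed by -0.35 in Dbp-high and by -0.04 in Dbp-low livers, Kat5 by -0.36 and -0.08, Hdac11 by -0.39 and -0.02, and Setd2 by -0.23 and -0.05. Hdac2, at 0.15 and 0.23, and Hdac5, at -0.25 and -0.42, kept their sign in both sets. The difference between these differences was tested by an interaction term, for which 0 of 53 enzymes and 0 of 19935 genes (0%) passed the adjusted threshold in limma. At an unadjusted p below 0.05 there were 5 of 53 (9.43%), all more negative in Dbp-high livers, against 6.49% of all genes (3.84% more negative): Kdm4a, Hdac11, the SET-domain genes Setd4 and Setd7, and Kat8 (MOF), which acetylates H4K16. For Kdm4a the interaction was -0.31 (unadjusted p = 0.0156, adjusted p = 0.742 by limma). The sets hold 3 and 2 livers of a genotype, so each of these values rests on few arrays.

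Between the Dbp sets, with genotype in the model, 12 of 53 enzymes passed an adjusted p of 0.05 in limma, or 22.6%, against 12.9% of all genes (2573 of 19935). Of the 12, 8 were higher in Dbp-high livers (15.1%, against 4.92% of all genes) and 4 were lower (7.55%, against 7.99%). The sets did not overlap for 13 enzymes (24.5%, against 12.2% of all genes), namely 10 of the 12 with Hdac10, Kat2a and Kdm1a. Here too most enzymes were brighter than the middle of all genes, and genes of like signal were not compared. The median difference over all 53 was 0.031, against 0.024 for all genes, and 23 lay below 0 (43.4% against 42.5%). Over all genes, 38.1% of those past the threshold were higher, against 48.7% after quantile normalization, where 7 enzymes were higher (6.69% of all genes) and 4 lower (7.05% of all genes). Because the sets were drawn from measured values of the same arrays, the p-values describe how far these livers lay apart and do not test a labelled condition.

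The deacetylases held the widest differences. Hdac5 had log2 intensities of 7.44, 7.37 and 7.4 in Dbp-high NML-KO livers and 7.86 and 7.45 in Dbp-high WT livers, against 7.96 and 8.22 in Dbp-low NML-KO livers and 8.51, 8.59 and 8.41 in Dbp-low WT livers. It was 1.7-fold lower in Dbp-high livers (log2 difference -0.77, SE 0.09, adjusted p = 0.000673 by limma), and no Dbp-high liver reached the lowest Dbp-low one. Hdac1, the close partner of Hdac2 in the same co-repressors, lay at 8.09, 7.71 and 8.27 with 8.03 and 8.19 in Dbp-high NML-KO and WT livers, against 8.53 and 8.51 with 8.49, 8.65 and 8.42 in Dbp-low ones. It was 1.37-fold lower (-0.45, SE 0.10, adjusted p = 0.0174), again without overlap, and its other probe set gave -0.57. Hdac4, of class IIa like Hdac5, moved the opposite way, at 7.56, 7.65 and 7.62 with 7.88 and 7.82 in Dbp-high NML-KO and WT livers, against 7.41 and 7.43 with 7.33, 7.51 and 7.44 in Dbp-low ones. The difference was 0.31 (SE 0.06, adjusted p = 0.0102), but the other probe set of Hdac4 gave -0.18 and the mean of both gave 0.06 (adjusted p = 0.573), so the direction depends on which probes are read. Hdac10, a polyamine deacetylase, lay just outside the threshold at -0.26 (adjusted p = 0.0536) and Hdac3 had a difference of 0.2 (adjusted p = 0.149), with 9.74, 9.59, 9.82, 9.83 and 9.53 in Dbp-high and 9.35, 9.48, 9.49, 9.61 and 9.66 in Dbp-low livers. The values of Hdac3 overlapped. Hdac2, Hdac7, Hdac9 and Hdac11 lay between -0.14 and 0.04.

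Lysine methyltransferases split in direction. Setd1b and Setd1a are the catalytic subunits of SET1/COMPASS complexes, which place H3K4 trimethylation at active promoters, and both fell. Setd1b had 8.29, 8.05 and 8.13 in Dbp-high NML-KO and 8.27 and 8.24 in Dbp-high WT livers, against 8.55 and 8.46 in Dbp-low NML-KO and 8.65, 8.62 and 8.59 in Dbp-low WT livers. The sets were separate, at -0.36 (SE 0.05, 1.28-fold, adjusted p = 0.00256 by limma), and the other probe set gave -0.16. Setd1a had 7.41, 7.27 and 7.6 with 7.85 and 7.48 in Dbp-high NML-KO and WT livers, against 7.9 and 7.88 with 7.94, 7.78 and 8.0 in Dbp-low ones. Its difference was also -0.36 (SE 0.09, adjusted p = 0.0358), and WT 1, a Dbp-high liver, lay above the lowest Dbp-low liver. Setd6, which methylates the NF-kappa B subunit RelA, had 7.95, 8.22 and 8.0 with 8.51 and 8.18 in Dbp-high NML-KO and WT livers, against 7.92 and 7.86 with 7.96, 7.91 and 7.84 in Dbp-low ones. It lay at the edge of the threshold (0.31, SE 0.09, adjusted p = 0.04998), with NML-KO 1 just below the top Dbp-low liver. Setd3, the actin histidine methyltransferase gene with the highest mean signal of the class, had 8.87, 9.14, 9.27, 9.64 and 9.34 in Dbp-high livers, against 9.07, 8.9, 9.09, 8.96 and 9.01 in Dbp-low livers. NML-KO 1 was the lowest liver although Dbp-high, and the difference was 0.29 (adjusted p = 0.116), with -0.09 from the other probe set. Ehmt1 (GLP) and Ehmt2 (G9a), which together place H3K9 dimethylation, differed by 0.29 and 0.02, and Ezh1 and Ezh2, the alternative catalytic subunits of the H3K27 methyltransferase PRC2, by 0.27 and -0.26, none past the threshold. Setd2, Setd4, Setd5, Setd7 and Suv39h2 lay between -0.22 and 0.22, Setd2 with probe sets of opposite sign at -0.12 and 0.08.

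Of the 15 demethylases 2 passed the threshold (13.3%, close to the 12.9% of all genes), both higher. Kdm5a removes methyl groups from H3K4 and is also known as a partner of CLOCK and BMAL1. It had 8.25, 7.84 and 8.25 in Dbp-high NML-KO and 7.86 and 7.95 in Dbp-high WT livers, against 7.66 and 7.41 in Dbp-low NML-KO and 7.71, 7.54 and 7.64 in Dbp-low WT livers. Without overlap, the difference was 0.43 (SE 0.10, 1.34-fold, adjusted p = 0.0237 by limma). Kdm4d, a dim member of the Kdm4 family whose mean signal lay at percentile 21 of all genes, had 5.2, 5.13 and 5.02 with 5.0 and 5.05 in Dbp-high NML-KO and WT livers, against 4.78 and 4.89 with 4.94, 4.83 and 4.86 in Dbp-low ones. The step between the sets was narrow, and the difference was 0.21 (SE 0.06, adjusted p = 0.0377). Its relatives Kdm4a, Kdm4b and Kdm4c differed by -0.04, 0.1 and -0.11. Kdm7a, the demethylase gene with the highest mean signal, had 8.97, 8.6, 8.92, 9.19 and 9.08 in Dbp-high livers, against 8.81, 8.51, 8.59, 8.63 and 9.11 in Dbp-low livers. WT 5 among the Dbp-low livers was as high as the Dbp-high ones, and the difference of 0.26 had an adjusted p of 0.201 by limma. The other probe set of Kdm7a gave 0.1. Kdm1a (LSD1) was without overlap at -0.19 (adjusted p = 0.143), and Kdm6b had -0.24 (adjusted p = 0.32). Kdm1b, Kdm2a, Kdm2b, Kdm3a, Kdm3b, Kdm5b and Kdm8 lay between -0.04 and 0.09.

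Acetyltransferases had 2 of 8 genes past the threshold (25%, against 12.9% of all genes), both higher. Kat2b (PCAF), the acetyltransferase that alternates with Kat2a (GCN5) in the SAGA and ATAC complexes, had 8.35, 7.83 and 8.22 in Dbp-high NML-KO and 8.25 and 8.12 in Dbp-high WT livers, against 7.8 and 7.64 in Dbp-low NML-KO and 7.71, 7.76 and 7.79 in Dbp-low WT livers. NML-KO 2 lay just above the Dbp-low range and the other Dbp-high livers well above it (difference 0.42, SE 0.09, 1.34-fold, adjusted p = 0.0167 by limma). Kat2a lay on the other side, at 8.16, 8.17, 8.34, 8.26 and 8.33 in Dbp-high livers, against 8.44, 8.48, 8.41, 8.52 and 8.36 in Dbp-low livers. The sets did not overlap, but the difference of -0.18 did not pass (adjusted p = 0.063). Kat6a (MOZ), which acetylates H3 in the BRPF complexes, had 7.95, 7.8 and 8.04 with 8.05 and 8.19 in Dbp-high NML-KO and WT livers, against 7.76 and 7.66 with 7.48, 7.68 and 7.65 in Dbp-low ones. It rose by 0.37 (SE 0.08, adjusted p = 0.0156), without overlap. Its paralogue Kat6b (MORF) had -0.14 (adjusted p = 0.339), and Kat5, Kat7, Kat8 and Kat14 lay between -0.12 and 0.08.

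Among arginine methyltransferases 2 of 8 genes passed (25%, against 12.9% of all genes). Of the 8, 7 lay above 0 and 1 below, against 42.5% of all genes below 0. Prmt7, which places monomethyl arginine, had 7.03, 7.1 and 7.06 in Dbp-high NML-KO and 7.3 and 7.27 in Dbp-high WT livers, against 6.77 and 6.83 in Dbp-low NML-KO and 6.89, 6.94 and 6.77 in Dbp-low WT livers. The sets were separate within and across genotypes (0.34, SE 0.05, 1.26-fold, adjusted p = 0.00367 by limma). Prmt2, an asymmetric dimethylase and nuclear receptor coactivator, had 5.95, 5.95 and 6.12 with 6.05 and 5.86 in Dbp-high NML-KO and WT livers, against 5.7 and 5.72 with 5.68, 5.79 and 5.48 in Dbp-low ones. It was 1.23-fold higher (0.30, SE 0.07, adjusted p = 0.0211), without overlap. Prmt1, which carries out most asymmetric dimethylation, had 0.18 (adjusted p = 0.101). Prmt5, the main symmetric enzyme and the one gene of the class below 0, had 7.97, 7.57, 7.86, 7.89 and 7.91 in Dbp-high livers, against 8.27, 8.03, 8.05, 8.21 and 7.9 in Dbp-low livers. Those values overlapped, at -0.25 (adjusted p = 0.129). Prmt3, Prmt6, Prmt9 and the barely measured Prmt8, at percentile 13.1 of mean signal, lay between 0.03 and 0.15.

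**Figure D3:**
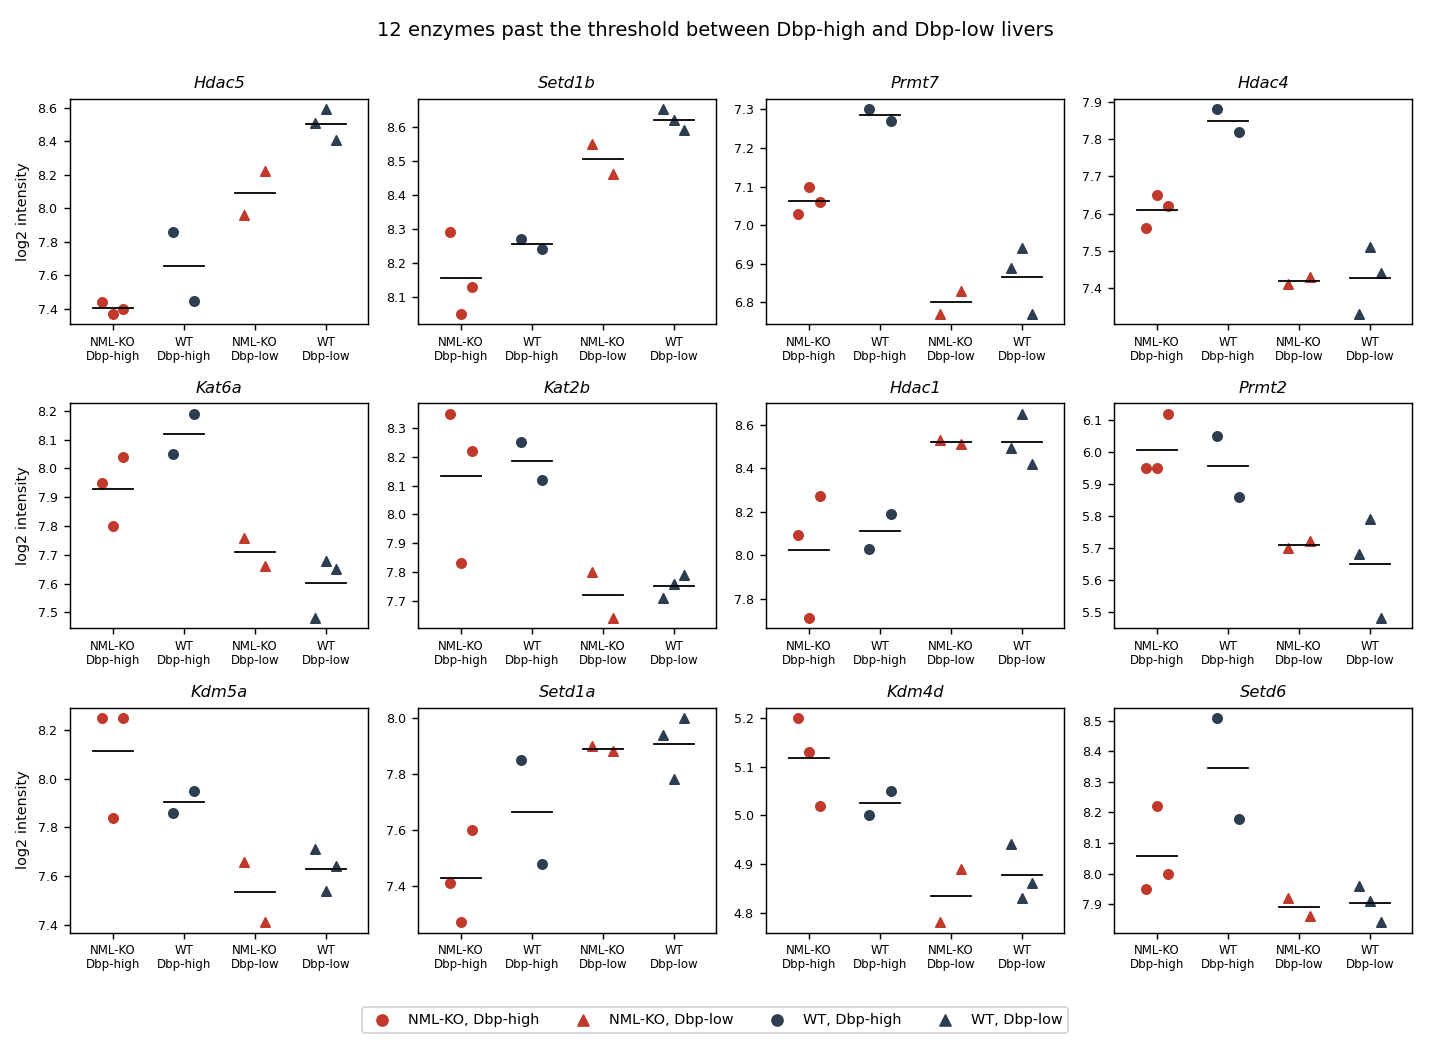
Log2 intensity in every liver for the 12 enzymes with an adjusted p below 0.05 between the Dbp sets, Dbp-high at the left of Dbp-low and the NML-KO livers of each set at the left of its WT livers; points are livers and bars are means. Setd1a and Setd6 are the genes whose sets overlap.

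The Dbp comparison can be made separately in each genotype, where the livers are not shared. Over all 53 enzymes, 35 had the same sign in NML-KO and in WT livers (66%), against 68% of all genes. In NML-KO livers 32 of 53 lay below 0 (60.4%, median -0.023), against 43.4% of all genes. In WT livers 18 of 53 did (34%, median 0.069), against 44.9% of all genes. For each gene, the difference between the genotypes here is the interaction term already given, for which no enzyme passed the adjusted threshold. All 12 genes past the threshold had the same sign in both, which their choice over the same 10 livers favours. Hdac5 differed by -0.68 in NML-KO and -0.85 in WT livers, Setd1b by -0.35 and -0.37, Kat2b by 0.42 and 0.43 and Prmt2 by 0.3 and 0.31. Kat6a, at 0.22 and 0.52, Hdac4, at 0.19 and 0.42, and Setd6, at 0.17 and 0.44, had the larger value in WT livers, and Kdm5a, at 0.58 and 0.28, and Setd1a, at -0.47 and -0.25, in NML-KO livers, none of them past the adjusted threshold for an interaction. Within WT livers 6 of 53 passed (11.3%, against 6.13% of all genes), and within NML-KO livers 0 (against 1.28%), with 14 of 53 at an unadjusted p below 0.05 (against 16.1%). Without NML-KO 5, 5 of 53 passed over the remaining livers: Hdac4, Hdac5, Setd1b, Kat6a and Prmt7.

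**Figure D4:**
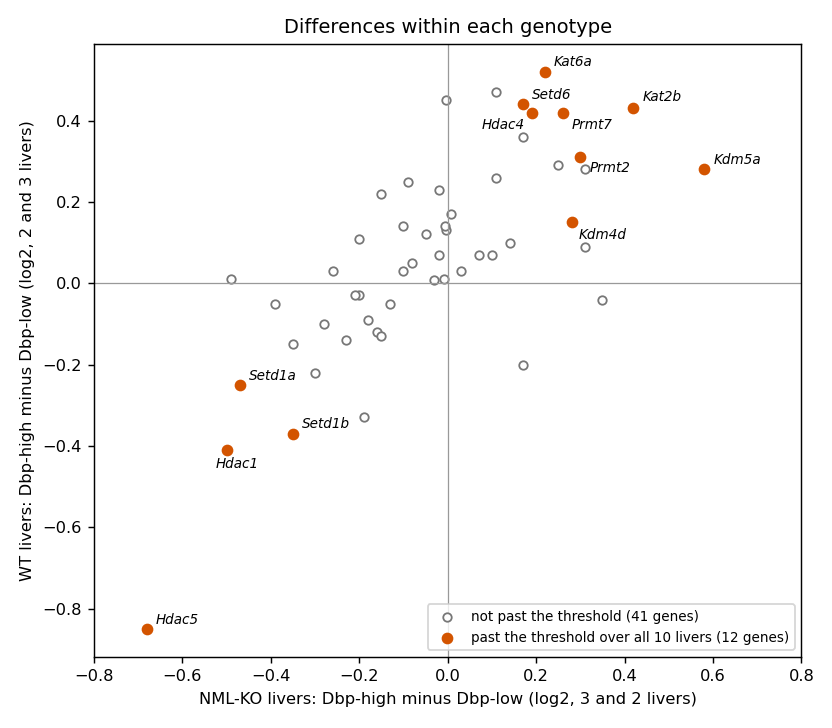
Dbp-high minus Dbp-low log2 differences of the 53 enzymes in NML-KO livers (horizontal axis) and in WT livers (vertical axis), with the 12 genes past the threshold over all livers filled and named. The filled genes lie at the upper right and the lower left, Hdac5 farthest out.

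Other values moved with the Dbp sets. The mean log2 signal of 51 small nucleolar RNA genes, a list chosen after its values were seen, was 7.77 to 7.97 in Dbp-high livers and 6.72 to 6.87 in Dbp-low livers, with 34 of 51 higher and 0 lower past the threshold. The mean of 6 Kupffer cell markers was 7.26 to 8.13 in Dbp-high and 7.87 to 8.56 in Dbp-low livers (median difference -0.51, 1 of 6 past the threshold), with Vsig4 past it at -1.24 (adjusted p = 0.0257 by limma). The mean of 4 cholangiocyte markers was 5.95 to 6.11 in Dbp-high and 6.15 to 6.41 in Dbp-low livers, but 3 of the 4 lay above 0 (median difference 0.07). The lower mean came from Sox9 (-1.13, adjusted p = 0.000379 by limma), the one of the 4 past the threshold. The mean of 6 hepatocyte markers was 13.98 to 14.1 in Dbp-high and 13.89 to 14.06 in Dbp-low livers. Of these 6, 3 lay above 0, and Alb alone was past the threshold at 0.21 (adjusted p = 0.00895 by limma). The part of all these values in the enzyme differences was not tested. Hour of dissection and RNA preparation, neither of which the labels give, cannot be told apart here.

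Histone enzymes and complex subunits outside the name pattern were read as 103 genes in 8 lists. In NML-KO against WT, 0 of the 103 passed and 73 lay below 0 (70.9%, median -0.051), against 53.4% of all genes. At an unadjusted p below 0.05 in limma there were 3 (2.91%), a share close to the 2.7% of all genes: the JmjC protein gene Phf2 at -0.20, Ndufaf7, an arginine methyltransferase of mitochondria, at -0.15 and Mta1, a NuRD subunit, at -0.18. Next in their lists were Prdm9 at -0.26, the H3K4 methyltransferase Kmt2d at -0.22, Chd3 of NuRD at -0.25, Fbxo11 at -0.18 and Jmjd8 at -0.11. The COMPASS-related subunits Paxip1 and Dpy30 had -0.2 and -0.23, and the acetyltransferase complex subunits Brpf3 and Tada3 had -0.15 and -0.09. The acetyltransferases Elp3 and Hat1 had 0.19 and 0.1, and the PRC2 subunits Phf1 and Suz12 had -0.2 and 0.1. Between the Dbp sets 17 passed (16.5%, against 12.9% of all genes), 6 higher (5.83% against 4.92%) and 11 lower (10.7% against 7.99%). Co-repressor subunits that work with the deacetylases had 4 of 19 past the threshold (21.1%), all lower, with Brms1 of the Sin3 complex at -0.62 (adjusted p = 0.00173 by limma) and Mbd2 of NuRD at -0.47 (adjusted p = 0.00367); the others were Gatad2b and Gps2. The list of other arginine methyltransferases held 3 genes, too few for a share to be read. Carm1, a coactivator that methylates H3, was lower at -0.50 (adjusted p = 0.0015), as was Fbxo11 at -0.45 (adjusted p = 0.0224), which is known as the F-box subunit of a ubiquitin ligase rather than as a histone enzyme.

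Among 22 acetyltransferase complex subunits 2 rose and 1 fell (13.6%, close to the 12.9% of all genes), with Msl2, which works with Kat8, at 0.54 (adjusted p = 0.00283 by limma) and Brpf1, the scaffold of Kat6a, at 0.29 (adjusted p = 0.018); the lower one was Ing4. Gatad2b, Gps2 and Ing4 are named here with their values already known. The 10 COMPASS subunits held 1 higher, Wdr82, a subunit of the Setd1a and Setd1b complexes, at 0.37 (adjusted p = 0.0217), and 1 lower, Ncoa6 of the related MLL complexes, at -0.42 (adjusted p = 0.0177). Of the 7 PRC2 subunits none passed, with Mtf2 at 0.21 (adjusted p = 0.0884) and Eed at 0.17 (adjusted p = 0.267). The 23 other lysine methyltransferases held Nsd1, an H3K36 enzyme, higher at 0.33 (adjusted p = 0.0325) and Kmt5c, an H4K20 enzyme, lower at -0.42 (adjusted p = 0.0187). In the 9 other JmjC genes Jmjd4 was higher at 0.34 (adjusted p = 0.0421) and Jmjd1c lower at -0.46 (adjusted p = 0.0098). In the 10 other acetyltransferases Gtf3c4 was higher at 0.39 (adjusted p = 0.031) and Nat10, which also acetylates RNA, lower at -0.45 (adjusted p = 0.0116). Shares past the threshold were 20% of COMPASS subunits, 8.7% of other lysine methyltransferases, 22.2% of other JmjC genes and 20% of other acetyltransferases. The share of all genes was 12.9%.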

How the data were processed

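Liver RNA of 5 NML-KO and 5 WT mice was measured on 10 arrays. The authors deposited 1 table of linear intensity values for 28815 probe sets, from 18.4 to 29834. Mouse build mm8 is named per the submitters' processing notes. The background correction and normalization are not stated in the sources used here. Any remaining background would shrink differences of dim genes.

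Probe sets with 1 gene symbol in the platform table (21780) were kept, 1605 with several and 5430 with none were left out, and the probe set with the highest mean stood for a gene. The name pattern was matched to the platform's symbols. Symbols were then updated through gene IDs in RefSeq (GRCm38.p6) for 21689 probe sets, and 91 kept the platform's symbol. Log2 values of 19935 genes were fitted with limma 3.58.1 in R 4.3.3 (lmFit, eBayes), for genotype, for Dbp set with genotype, and for their interaction. Benjamini-Hochberg adjustment ran over all genes at 0.05, with no filter on dim genes. The titles gave genotype and replicate number. Each title names a separate liver, and nothing more is said of litters, so p-values measure the spread between these livers.

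Values by liver are given for enzymes past the threshold between Dbp sets, the 6 with the smallest p between genotypes and the highest mean of each class. In each other list the text gives genes among the 2 smallest p. The members and lists were chosen with earlier results of these data known. The fits were tested on simulated data: at 1.2-fold 23% of changed genes were recovered between genotypes and 20.6% between Dbp sets, and at 1.5-fold 75.6% and 76.2%. The simulated spread was that left after genotype and Dbp set were both fitted. The genotype fit has no Dbp term, so its recovery is overstated for genes that differ between the Dbp sets. Each simulation changed 200 of 19935 genes, by 1.2- to 4-fold, and the adjusted threshold is easier to pass when more genes change. Between the real genotypes 0 genes passed, and Rrp8, 1.84-fold lower, had an adjusted p of 0.109 in limma. The simulated shares therefore overstate what could be called between genotypes. Alternatives tried were other scalings, an offset of 16, array weights, a trended prior, a mean over probe sets, dim genes left out, other thresholds, the replicate block and each array left out.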

Additional observations from a re-analysis of the deposited data

How the results depend on the processing

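Between genotypes, 0 of 53 enzymes passed in limma under every alternative run, and over all genes 0 passed except without NML-KO 4, where 1 did (range 0 to 1 with 1 array left out). Rrp8 ranged from -0.96 to -0.82 with 1 array left out, with an adjusted p of 0.0171 at -0.96, without NML-KO 4. For the 6 enzymes named between genotypes, 132 of 132 alternatives kept sign and side of the threshold. Between Dbp sets, enzymes past the threshold numbered 5 to 13 with 1 array left out (5 without NML-KO 5), 0 within NML-KO livers, 6 within WT livers and 3 at a threshold of 0.01. All genes past it numbered 1625 to 2557 with 1 array left out (1625 without NML-KO 5), 256 within NML-KO livers and 1223 within WT livers, where fewer arrays enter each fit. Of 250 alternatives for the 12 enzymes named there, 194 kept sign and call, 56 lost the call and 0 turned the sign. Leaving out dim genes gave no value for Kdm4d and Prmt2. Within NML-KO livers the class median between Dbp sets was -0.077 for lysine methyltransferases and -0.061 for acetyltransferases, and with 16 subtracted before log2 it was 0.17 for arginine methyltransferases; the cause was not tested. With the replicate number as a block, 0 of 53 enzymes and 0 of 19935 genes passed between genotypes, and 5 enzymes, against 3 without the block, had an unadjusted p below 0.05 (4.18% of all genes with the block). The correlation of same-numbered livers was 0.438, 0.264, -0.416, 0.348 and 0.537 for numbers 1 to 5, and 2 of 10 livers correlated best with their own number. The labels state no pairing and number 3, whose livers lie in different Dbp sets, was below 0, so the number was not used as a pairing. Differences near 1.2-fold are mostly below what 5 arrays a group can call. Larger ones can be missed between genotypes too, as Rrp8 was at 1.84-fold.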
